A study of Mus musculus with 6 samples.

Results

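The olfactomedin domain family consists of secreted and membrane proteins that share a C-terminal olfactomedin domain, and 10 of its genes were followed here by symbol: Olfm1, Olfm2, Olfm3, Olfm4, Olfml1, Olfml2a, Olfml2b, Olfml3, Myoc and Gldn. All 10 had a row among the 35975 counted rows of the deposited table. Messenger RNA was sequenced from the brown adipose tissue of C57BL/6 mice, with 3 libraries labelled Ctrl and 3 labelled Olfm4CKO. In Olfm4CKO mice, floxed Olfm4 (Olfm4 flox/flox) was combined with a Cre recombinase under the Ucp1 promoter, so deletion was directed at brown adipocytes and other cells of the depot keep the gene. The tissue was the interscapular depot, a fat pad that burns fuel to make heat. The labels give neither the age nor the sex of the mice, nor whether Ctrl mice carry floxed alleles or the Cre transgene, so Cre and loss of Olfm4 cannot be told apart. The titles of all 6 libraries, Olfm4CKO included, end in "Olfm4 WT". The labels do not name the mouse behind each library, and p-values therefore cover no more than the spread between these libraries.

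Values per gene come from replicates 1 and 2 of each group, with 15346705 to 17309325 counts per library. The replicate 3 columns (12108535 and 12470249 counts) did not follow the gene names beside them, with rank correlations of -0.0209 to -0.0156 with the other libraries, and were not assigned to genes. Ctrl replicate 1 held transcripts of 4 Y-linked genes and no Xist count, while the other 3 libraries held no count of these Y-linked genes and 835 to 3334 counts of Xist, so the Ctrl group mixes libraries that differ in sex-linked transcripts and the Olfm4CKO group does not. Its part in the results was not tested. The labelled tissue was described by 10 brown adipocyte markers, all of them detected. Their summed level was 18356, 23578, 19352 and 11003 normalised CPM in Ctrl replicates 1 and 2 and Olfm4CKO replicates 1 and 2. Normalised CPM are the counts scaled to a common library size. Groups of libraries are given in this order throughout. The list holds general adipocyte genes such as Adipoq and Fabp4, so its sum alone does not identify brown fat. Ucp1 had 5885, 10210, 4815 and 2944 CPM. Of the 10 log2 fold changes, 1 lay above 0 and 9 below. Groups did not overlap for 2 genes, both lower in Olfm4CKO (12.8% of all tested genes), and 0 passed the test given below.

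Proteins of this family work mostly outside the cell. Several assemble into oligomers and bind partners on neurons, glia or in the extracellular matrix, and the latrophilins carry the same domain in the extracellular part of an adhesion receptor. Myocilin, encoded by Myoc, is best known for its role in glaucoma, gliomedin, encoded by Gldn, for building nodes of Ranvier in peripheral nerve, and olfactomedin 4, encoded by Olfm4, as a product of neutrophils and intestinal crypts. Brown fat is densely innervated and contains Schwann cells, vessels and stroma beside its adipocytes. In RNA from whole tissue, fewer cells of a type and less RNA per cell cannot be told apart.

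Olfm4, the targeted gene (chromosome 14, 80000302 to 80023141, RefSeq on GRCm38.p6, as for all genes placed here), had 0 counts in every one of the 4 libraries, Ctrl included. The groups were therefore equal at 0, and the gene could not check the genotype labels. Over the 2 Ctrl libraries together a count of 0 allows up to 0.0902 CPM, over the 2 Olfm4CKO libraries up to 0.0971 CPM, and over all 64157275 counts up to 0.0468 CPM, or 0.0158 CPM per kilobase of exon. These limits are 3 counts of the total and cover counting error only. A difference between Olfm4 levels below these limits could not have been seen at this depth. Markers of cells known to make olfactomedin 4 were low but not uniformly absent. The 10 neutrophil genes summed to 15.03, 21.0, 24.0 and 20.5 CPM, led by the calprotectin subunits S100a8 and S100a9. The granule genes of this list are not all named here. Among them, Mpo had 0, 0, 0 and 3 counts and Elane 23, 4, 2 and 7. Ltf had 11, 8, 10 and 6, Ngp 11, 14, 13 and 6, and Camp 5, 6, 9 and 3. The 6 epithelial genes summed to 0.564, 0.534, 0.517 and 1.02 CPM, and Krt8 was at 0 in all 4 libraries. The sequence at the Olfm4 start is shown because it marks where transcription of the targeted gene is annotated. RefSeq places it on the plus strand at chr14:80000052-80000351 (GRCm38.p6), from 250 bases before to 50 bases after the start, with each CG dinucleotide and each TATAA in capitals.

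Olfm4: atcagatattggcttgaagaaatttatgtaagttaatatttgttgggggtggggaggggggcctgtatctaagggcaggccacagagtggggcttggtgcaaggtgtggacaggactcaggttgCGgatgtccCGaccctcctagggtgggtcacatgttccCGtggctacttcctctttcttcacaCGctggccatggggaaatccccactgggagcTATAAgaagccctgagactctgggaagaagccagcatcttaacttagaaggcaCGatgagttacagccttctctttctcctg

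This window of 300 bases holds 5 CG dinucleotides and a TATAA that begins 32 bases before the start (position -32). TATAA, the core of the TATA box, was found on either strand in 24.9% of 32851 promoter windows of the same length. GENCODE vM21 also draws an Olfm4 model that begins upstream, at 79984081, and shares 153 exon bases with the noncoding gene Gm6999.

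Olfm3 (chromosome 3, 114904078 to 115125764), which encodes optimedin, a secreted relative expressed in eye and brain, was likewise at 0 counts in all 4 libraries. Its limit over all 4 libraries is 0.00947 CPM per kilobase of exon. The other 8 members had 40 to 477 counts each over the 4 libraries. All 10 together held 1545 counts, of which 267, 549, 277 and 452 fell in the 4 libraries, or 16.7, 32.5, 17.9 and 28.7 CPM. The library numbered 2 was higher than the library numbered 1 in both groups for 5 of the 8 detected members. The numbers do not pair the libraries by anything the labels say.

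**Figure D1:**
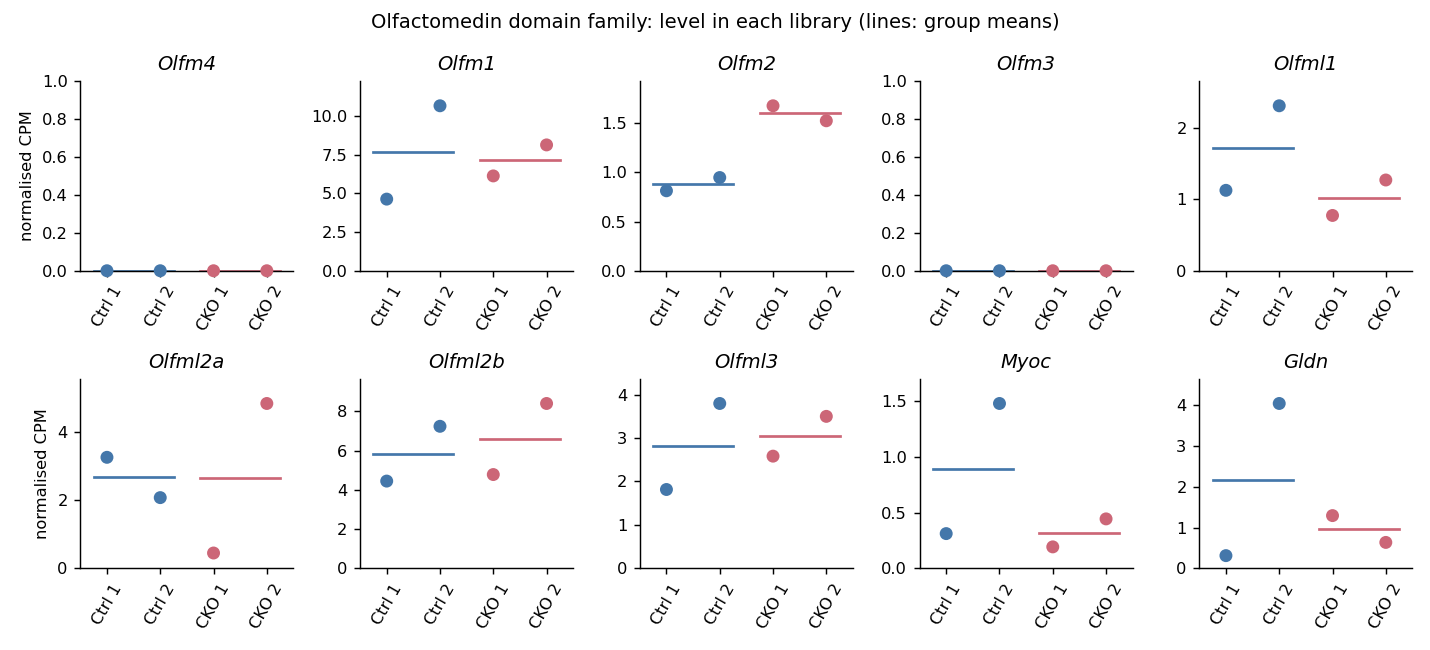
Normalised CPM of the 10 family members (y axes, each starting at 0) in Ctrl replicates 1 and 2 (blue) and Olfm4CKO replicates 1 and 2 (red), with lines at the group means. Olfm4 and Olfm3 are at 0 in every library, and Olfm2 alone has both Olfm4CKO libraries above both Ctrl libraries.

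Per kilobase of exon, Olfm1 and Olfml2b stood highest in the family, at a mean of 2.08 and 2.01 CPM per kilobase over the 4 libraries. Their ranges, 1.30 to 3.004 and 1.44 to 2.71 CPM per kilobase, overlapped, so the order of this pair is not fixed by these libraries. They lay above 36.9% and 36.1% of the 12846 tested genes with a known length, whose median was 3.63 CPM per kilobase. Olfml1 followed at 0.814 CPM per kilobase, and its range of 0.460 to 1.37 lay below that of Olfml2b. Below it came Olfml2a (0.476 CPM per kilobase), Olfml3 (0.474), Olfm2 (0.466), Gldn (0.337) and Myoc (0.293), each with a range that overlapped its neighbour's. Myoc, the lowest of the detected members, lay above 7.16% of tested genes. The place of Olfml3 depended on its gene model, which in GENCODE holds 6161 exon bases while the whole RefSeq gene spans 2608 bases. With that span as length, Olfml3 had 1.12 CPM per kilobase and would come next after Olfml2b.

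**Figure D2:**
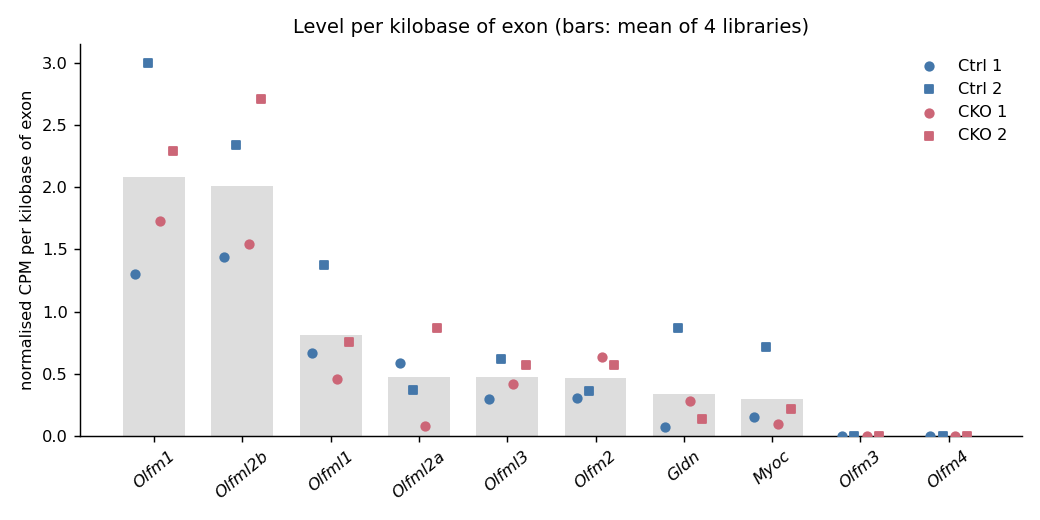
Level of each member as normalised CPM per kilobase of exon (y axis), with bars at the mean of 4 libraries and points for each library (Ctrl blue, Olfm4CKO red, circles for replicate 1 and squares for replicate 2). Olfm1 and Olfml2b have means of 2.08 and 2.01, Olfml1 0.814, and the remaining detected members lie at or below 0.476.

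The start sites of the members differed widely in CG content, a feature that the choice of genes did not use. The windows of Olfm1 and Olfml2b, the highest per kilobase, and of Myoc, the lowest detected, are shown for comparison with Olfm4, with the same capitals. They lie at chr2:28192843-28193142 (the first of 2 Olfm1 windows), chr1:170644282-170644581 and chr1:162638900-162639199 (GRCm38.p6, all on the plus strand, sequences from RefSeq).

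Olfm1: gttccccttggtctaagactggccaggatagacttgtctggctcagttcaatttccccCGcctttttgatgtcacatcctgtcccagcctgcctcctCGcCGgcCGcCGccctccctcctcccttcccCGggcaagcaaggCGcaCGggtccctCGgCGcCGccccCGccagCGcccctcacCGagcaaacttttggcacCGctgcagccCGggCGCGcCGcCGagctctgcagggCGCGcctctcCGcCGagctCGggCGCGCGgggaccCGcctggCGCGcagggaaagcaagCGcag

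Olfml2b: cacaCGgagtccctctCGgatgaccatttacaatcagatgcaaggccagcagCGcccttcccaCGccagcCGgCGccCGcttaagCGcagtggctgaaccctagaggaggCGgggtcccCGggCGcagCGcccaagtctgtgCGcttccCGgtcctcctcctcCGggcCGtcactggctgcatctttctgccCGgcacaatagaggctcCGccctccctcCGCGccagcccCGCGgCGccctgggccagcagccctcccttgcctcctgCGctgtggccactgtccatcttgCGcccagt

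Myoc: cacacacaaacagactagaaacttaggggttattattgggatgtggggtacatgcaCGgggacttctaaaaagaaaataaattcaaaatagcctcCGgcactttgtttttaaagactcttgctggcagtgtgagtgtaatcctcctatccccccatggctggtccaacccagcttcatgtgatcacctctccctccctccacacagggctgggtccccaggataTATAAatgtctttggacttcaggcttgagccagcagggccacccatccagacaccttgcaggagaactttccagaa

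The Olfm1 window has 32 CG dinucleotides and that of Olfml2b 25, against 2 in Myoc, whose TATAA begins 26 bases before the start (position -26). Among the other members, TATAA was found in the window of Olfm2 numbered 3. Across all 32851 windows the median was 7, with quartiles at 3 and 20. The second Olfm1 window had 43. Olfm2 had 29, 5 and 31 in 3 windows, Gldn and Olfml2a 17 each, and Olfml3 8. Olfm3, at 0 counts, had 5 and 4 in its 2 windows. The GC box GGGCGG was present on either strand in at least 1 window of Olfm1, Olfm2, Olfm3, Olfml2a, Olfml2b, Olfml3 and Gldn, and in 35.7% of all windows. Level did not follow CG content throughout, since Olfml1 came next after Olfml2b in level with 3 CG dinucleotides, and Olfm2, with up to 31, stood below it. These counts describe the letters and identify no binding site.

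**Figure D3:**
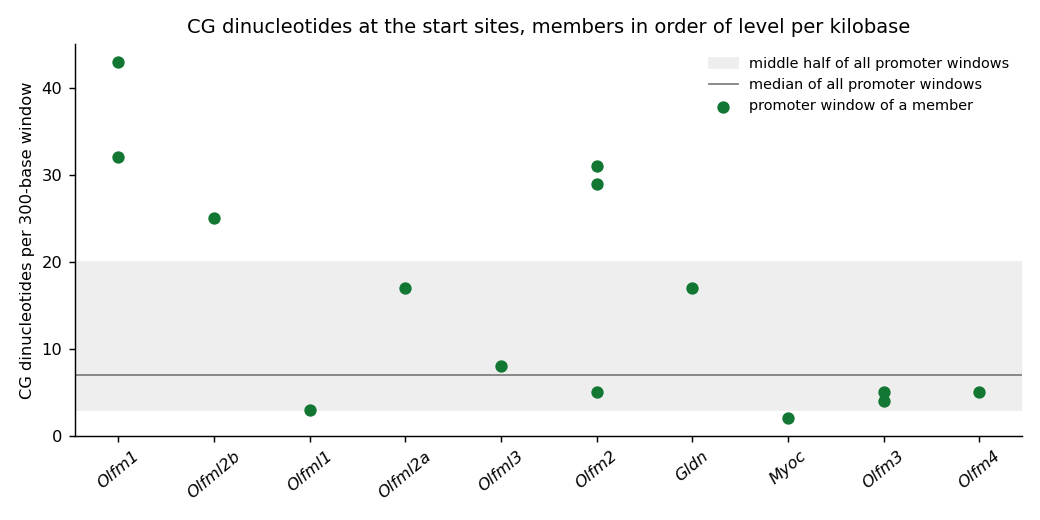
CG dinucleotides per promoter window of 300 bases (y axis) for each annotated start of a member, with members ordered along the x axis by level per kilobase of exon. The grey band runs from 3 to 20, the quartiles over all promoter windows, and the line marks their median of 7. Olfm1, Olfml2b (25) and the Olfm2 windows at 29 and 31 lie above the band. Olfm3 and Olfm4, with no counts, lie at 4 to 5, and the detected Olfml1 and Myoc at 3 and 2.

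Between Olfm4CKO and Ctrl no family member passed the test. Of the 10 genes, 7 had enough counts to be tested with edgeR's quasi-likelihood test, and 0 of them had a Benjamini-Hochberg adjusted p below 0.05 (0.9998 for each). The same fit called 0 of 13573 genes (0%), and 287 genes (2.11%) had an unadjusted p below 0.05, with no family member among them. DESeq2 called 1 gene (0.00737%) and limma-voom 0. Leaving out 1 library gave 25 (0.175%), 27 (0.190%), 27 (0.190%) and 6 (0.0420%) called genes, in the order of libraries given above, and a replicate block gave 4 (0.0295%). None of these calls was a family member. The 7 log2 fold changes split into 3 above and 4 below 0, with a median of -0.01, beside a median of -0.01 over all tested genes. Groups did not overlap for 1 of the 7, which was higher in Olfm4CKO, against 24.6% of tested genes (11.8% higher and 12.8% lower). Precision was limited, since 95% intervals reached a median of 0.89 log2 units to either side over all tested genes, and those of all 7 members were wider.

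**Figure D4:**
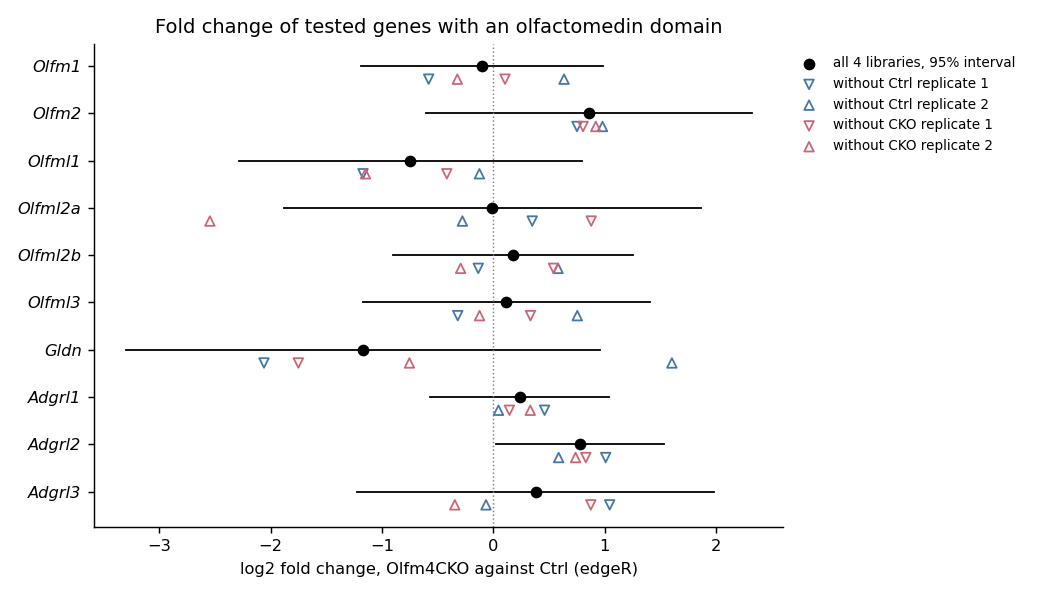
Log2 fold change of Olfm4CKO against Ctrl (x axis, edgeR) for the 7 tested members and the 3 latrophilins, with 95% intervals as lines and open triangles for fits without 1 library. Olfm2 and Adgrl2 keep to the right of 0 without any library, and Gldn moves from -2.06 to 1.601.

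Olfm1, Olfm2 and Olfm3 encode the noelins, glycoproteins secreted in the nervous system. Olfm1 (chromosome 2, 28193093 to 28230736) had 74, 180, 95 and 128 counts, or 4.63, 10.7, 6.13 and 8.14 CPM. Ctrl libraries held both its lowest and its highest level, and both Olfm4CKO libraries lay between them. Its log2 fold change was -0.10 ± 0.49 (SE), with a 95% interval of -1.18 to 0.98. Leaving out 1 library moved it from -0.58 (without Ctrl replicate 1) to 0.63 (without Ctrl replicate 2). Over the 4 libraries, genes with a pattern close to that of Olfm1 included Rap1gap, a GTPase-activating protein, and Atg9b, an autophagy gene, with root mean square distances of 0.0116 and 0.0424 on the centred log2 scale. With only 4 libraries such closeness is common, and 204 of 12030 protein-coding genes lay within 0.2.

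Olfm2 (chromosome 9, 20667690 to 20746333), which in cultured cells takes part in smooth muscle differentiation with the serum response factor, was the single tested member whose groups did not overlap. It had 13 and 16 counts in Ctrl and 26 and 24 in Olfm4CKO, or 0.814 and 0.949 CPM against 1.68 and 1.53 CPM. Both Olfm4CKO libraries lay above both Ctrl libraries, as they did for 11.8% of tested genes. The mean was 0.881 ± 0.0952 CPM in Ctrl and 1.603 ± 0.108 CPM in Olfm4CKO (SD, n = 2 each), a log2 fold change of 0.86 ± 0.66 (SE) with a 95% interval of -0.61 to 2.32. It ran from 0.75 to 0.98 without each library in turn. The counts are few, and the difference did not pass (edgeR adjusted p = 0.9998). Gm39299, a noncoding RNA whose span overlaps Olfm2 in RefSeq, had 1, 3, 5 and 5 counts. Srf, the serum response factor gene itself, averaged 47.4 ± 16.3 CPM in Ctrl against 92.5 ± 22.9 CPM in Olfm4CKO, with both Olfm4CKO libraries above both Ctrl libraries (log2 fold change 0.96 ± 0.38 SE, edgeR adjusted p = 0.9998). The 10 smooth muscle and pericyte markers summed to 862, 681, 777 and 685 CPM and lay on both sides of 0, with 2 of 9 tested above it. Tagln, one of them, had only 1, 3, 0 and 0 counts, and overlaps Pcsk7 in RefSeq.

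Gldn (chromosome 9, 54286486 to 54341777) encodes gliomedin, the Schwann cell protein that binds neurofascin and NrCAM and gathers sodium channels at nodes of Ranvier. It varied most of all detected members, with 5, 68, 20 and 10 counts, or 0.313, 4.03, 1.29 and 0.636 CPM. The Ctrl libraries were the lowest and the highest of the 4, and Olfm4CKO lay between them. Ctrl replicate 2 exceeded Ctrl replicate 1 by 12.9 times (exact 95% counting interval 5.26 to 40.9). The log2 fold change of -1.17 ± 0.97 (SE, 95% interval -3.30 to 0.96) rests on Ctrl replicate 2, and was 1.601 without it and -2.06 without Ctrl replicate 1 (edgeR adjusted p = 0.7499). Gldnos, a noncoding gene that overlaps the locus, had 0 counts.

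Myelin genes, made by the same kind of Schwann cell, had another order of libraries than Gldn. The 10 markers of myelinating Schwann cells summed to 254, 468, 132 and 141 CPM, so that both Ctrl libraries lay above both Olfm4CKO libraries. All 10 were tested, all 10 log2 fold changes lay below 0 with a median of -1.36, 8 of the 10 had groups that did not overlap, all lower in Olfm4CKO (12.8% of all tested genes), and 0 passed. In Ctrl replicate 1 the myelin sum was above both Olfm4CKO libraries while Gldn was below both. Markers of the Schwann lineage not tied to myelin summed to 87.2, 98.8, 116 and 67.5 CPM, with 3 of 7 tested above 0 and 4 below. S100b was the highest of them in every library, at 51.5, 65.9, 85.4 and 33.4 CPM, and weighed most in these sums. Sox10 had 2.44, 6.34, 2.84 and 2.99 CPM. It alone of that list was lowest in Ctrl replicate 1 and highest in Ctrl replicate 2, as Gldn was. The part of these differences in the Gldn values was not tested.

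The genes that work with gliomedin at the node were mostly too low to be tested. Of 8 node of Ranvier genes, 2 were tested and 0 passed. Nfasc, which encodes neurofascin, had 2, 14, 7 and 6 counts, and Nrcam had 8, 6, 2 and 6. Neither pair of groups was apart. Cntnap1, the paranodal Caspr, averaged 35.5 ± 5.03 CPM in Ctrl against 43.5 ± 10.3 CPM in Olfm4CKO (log2 fold change 0.29 ± 0.34 SE). Ank3, the ankyrin that anchors nodal channels, had a log2 fold change of 0.01 ± 0.55 (SE). Of 6 neuronal genes, Snap25, Syt1 and Th were at 0 in all 4 libraries, while Stmn2 had 53, 68, 41 and 42 counts, Uchl1 12, 9, 10 and 5, and Tubb3 0, 7, 1 and 6.

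Myoc (chromosome 1, 162639150 to 162649694) encodes myocilin, a secreted glycoprotein abundant in the trabecular meshwork of the eye. It had 5, 25, 3 and 7 counts, or 0.313, 1.48, 0.194 and 0.445 CPM, and was below the count filter. Ctrl replicate 2 stood highest, Ctrl replicate 1 lay between both Olfm4CKO libraries, and the groups overlapped. The ratio of Ctrl replicate 2 to Ctrl replicate 1 was 4.73 (exact 95% counting interval 1.78 to 15.8). Fitted without the filter its log2 fold change was -1.47 (edgeR adjusted p = 0.9972). With the filter, Myoc was tested in 3 of the 4 fits that leave out 1 library, at -2.19 without Ctrl replicate 1, -0.99 without Olfm4CKO replicate 1 and -2.18 without Olfm4CKO replicate 2. Skeletal muscle markers, 10 genes, summed to 62.7, 12.8, 189 and 18.0 CPM, with their highest level in Olfm4CKO replicate 1, where Myoc was lowest. Myocos, a gene on the opposite strand that shares 93 exon bases with Myoc in GENCODE, had no counted row under that symbol and was not analysed.

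The remaining members, Olfml1, Olfml2a, Olfml2b and Olfml3, encode olfactomedin-like proteins of the extracellular space. Olfml2b (chromosome 1, 170644431 to 170682789), photomedin-2, had 71, 122, 74 and 132 counts, or 4.45, 7.23, 4.78 and 8.39 CPM. The groups overlapped in part, at 5.84 ± 1.97 CPM for Ctrl against 6.59 ± 2.56 CPM for Olfm4CKO (SD, n = 2 each), and the log2 fold change was 0.17 ± 0.49 (SE, 95% interval -0.90 to 1.249). It turned to -0.14 without Ctrl replicate 1 and to -0.29 without Olfm4CKO replicate 2.

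Olfml2a (chromosome 2, 38931980 to 38960585), photomedin-1, which like Olfml2b binds chondroitin sulfate, had 52, 35, 7 and 76 counts, or 3.26, 2.08, 0.452 and 4.83 CPM. Here it was the Olfm4CKO libraries that held the lowest and the highest level. Olfm4CKO replicate 2 exceeded replicate 1 by 10.7 times (exact 95% counting interval 4.95 to 27.5), and the log2 fold change was -0.01 ± 0.85 (SE, 95% interval -1.88 to 1.86). Without Olfm4CKO replicate 1 it was 0.88. With that library kept and Olfm4CKO replicate 2 left out it was -2.54 (edgeR adjusted p = 0.8190). Fibroblast markers, 10 genes, summed to 1031, 1385, 557 and 1303 CPM and were also lowest in Olfm4CKO replicate 1. All 10 had log2 fold changes below 0 (median -0.45) and 0 passed. Their part in the Olfml2a values was not tested. Olfml2a and Olfml2b share no run longer than 27 bases between their transcripts, the longest shared by any pair of members.

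Olfml3 (chromosome 3, 103735394 to 103738001), whose Xenopus relative links tolloid proteases to the BMP antagonist chordin, had 29, 64, 40 and 55 counts, or 1.82, 3.79, 2.58 and 3.498 CPM. Both Olfm4CKO libraries lay between the Ctrl libraries, and the log2 fold change was 0.11 ± 0.58 (SE, 95% interval -1.17 to 1.40). It ran from -0.32 without Ctrl replicate 1 to 0.75 without Ctrl replicate 2. Of 6 genes of the BMP and tolloid list 4 were tested, 1 above and 3 below 0, and 0 passed. Bmp1, the tolloid-type protease, averaged 19.8 ± 3.59 CPM in Ctrl against 19.1 ± 0.795 CPM in Olfm4CKO. Bmp4 had only 15, 12, 3 and 3 counts, with both Olfm4CKO libraries below both Ctrl libraries, as for 12.8% of tested genes. Its log2 fold change was -2.06 ± 0.86 (SE, edgeR adjusted p = 0.9998). Chrd, chordin, had 5, 6, 5 and 6 counts.

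Olfml1 (chromosome 7, 107567433 to 107591365), a secreted member, had 18, 39, 12 and 20 counts, or 1.13, 2.31, 0.775 and 1.27 CPM. Ctrl replicate 2 was highest and Olfm4CKO replicate 2 lay above Ctrl replicate 1, so the groups overlapped. The log2 fold change was -0.75 ± 0.70 (SE, 95% interval -2.29 to 0.80) and ranged from -1.17 without Ctrl replicate 1 to -0.13 without Ctrl replicate 2.

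The 3 latrophilins, adhesion receptors with an olfactomedin domain, reached 1.63 (Adgrl1), 1.504 (Adgrl2) and 0.0797 (Adgrl3) CPM per kilobase of exon, and all log2 fold changes lay above 0. Adgrl2 had 289, 226, 408 and 434 counts. Both Olfm4CKO libraries exceeded both Ctrl libraries, at 27.0 ± 0.888 CPM against 15.7 ± 3.32 CPM (SD, n = 2 each), a log2 fold change of 0.78 ± 0.34 (SE) that did not pass (edgeR adjusted p = 0.9998). Fits without 1 library each gave 0.58 to 1.01. Endothelial markers lay the same way, with sums of 1149, 1049, 1769 and 1501 CPM for 8 genes, all 8 above 0 (median 0.58, log2), 3 with groups that did not overlap and higher in Olfm4CKO (11.8% of all tested genes), and 0 passing. Their part in the Adgrl2 value was not tested. Adgrl1 (0.23 ± 0.36 SE) and Adgrl3 (0.38 ± 0.73 SE) had overlapping groups, and Adgrl3 turned sign without Ctrl replicate 2 (-0.07) and without Olfm4CKO replicate 2 (-0.35). As a list the 3 latrophilins had a median log2 fold change of 0.38, beside -0.01 over all tested genes.

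Of 7 latrophilin ligands, the teneurins and FLRT proteins, 4 were tested, 3 above and 1 below 0, and 0 passed. Tenm4, a teneurin, had 609, 533, 739 and 1427 counts, with both Olfm4CKO libraries above both Ctrl libraries, as for 11.8% of tested genes. Its log2 fold change was 0.99 ± 0.38 (SE, edgeR adjusted p = 0.9998). Flrt2 lay the other way at -0.54 ± 0.64 (SE), with both Olfm4CKO libraries below both Ctrl libraries, as for 12.8% of tested genes. Among 12 further genes whose products bind or act with a family member, 9 were tested, 5 above and 4 below 0, with a median of 0.02 and 0 passing. Ndufa13, the complex I subunit GRIM-19 that binds olfactomedin 4, averaged 303 ± 92.5 CPM in Ctrl against 307 ± 156 CPM in Olfm4CKO. Nod1 and Nod2, innate sensors that olfactomedin 4 restrains in mouse, had log2 fold changes of 0.31 ± 0.37 and 0.60 ± 0.54 (SE). Rtn4r, the Nogo receptor bound by Olfm1, had 0, 3, 0 and 0 counts, and Gria2, a glutamate receptor subunit bound by the noelins, was at 0 in all 4 libraries.

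**Figure D5:**
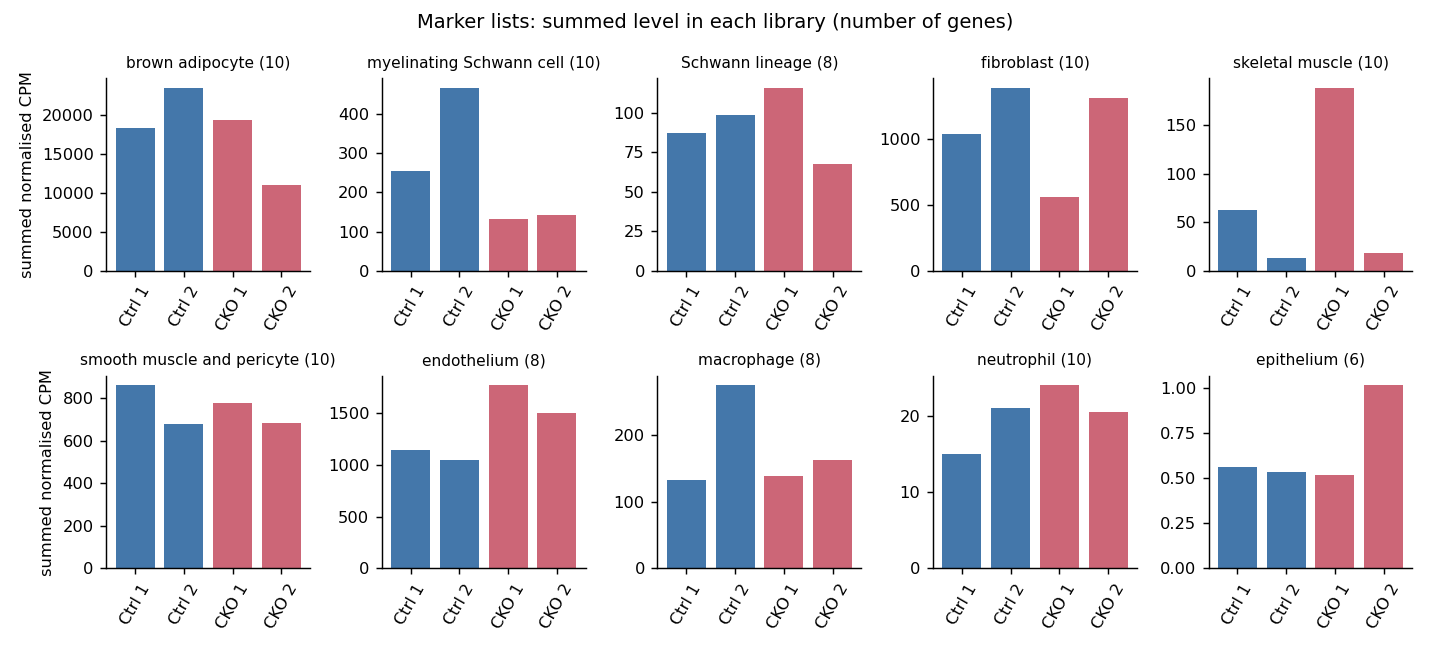
Summed normalised CPM (y axes from 0) of 10 marker lists in each library, with the number of genes in brackets, Ctrl in blue and Olfm4CKO in red. Myelinating Schwann cell markers are 254 and 468 in Ctrl against 132 and 141 in Olfm4CKO, fibroblast markers are lowest (557) and skeletal muscle markers highest (189) in Olfm4CKO replicate 1.

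Other marker lists did not share a common order of libraries. Macrophage markers, 8 genes, summed to 133, 275, 138 and 163 CPM and were highest in Ctrl replicate 2. Fibroblast, myelinating Schwann cell, brown adipocyte and neuronal markers were highest there too (1385, 468, 23578 and 4.98 CPM). Olfm1, Olfml1, Olfml3, Myoc and Gldn were also highest in this library. Markers of tendon and fascia stayed low, with 3.26, 7.35, 7.30 and 7.44 CPM for 8 genes. Those of neurons stood at 4.07, 4.98, 3.36 and 3.37 CPM for 6 genes, with both Ctrl sums above both Olfm4CKO sums. Of the neuronal genes 2 were tested, both below 0, and 0 passed. The part of these lists in the members' values was not tested.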

How the data were processed

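Mouse brown fat libraries were made with an mRNA-seq kit, per the labels' protocols. The submitters' processing notes name cutadapt 1.11, HISAT2 2.1.0, featureCounts 1.6.0 and the build mm10. Neither annotation nor strand setting is stated, and overlapping genes may share reads. The authors' table carries FPKM in its name. Its values, as deposited, are whole numbers with unequal column totals and were read as raw counts. Of 35978 rows, 35975 held counts. Replicate 3 columns, blank for 11702 rows, were left out.

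The 10 members, the 18 other lists (145 genes) and their tests were chosen with earlier results of these data known. All members, the genes of partner lists with a known tie to a member, and the 3 genes closest to the highest member were eligible to be named; 3 of the genes eligible by these rules or as markers are not reported here by name, but all fits and list sums include them.

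Tests used edgeR 4.0.16 in R 4.3.3 on 2 against 2 libraries: filterByExpr (minimum count 10, minimum total 15), TMM, quasi-likelihood fit on group, Benjamini-Hochberg adjustment over 13573 genes, threshold 0.05. Fitted standard errors are the log2 fold change over the square root of F. CPM use TMM-scaled library sizes; CPM per kilobase divide by GENCODE vM21 union exon length. An exact permutation of 2 against 2 cannot go below 0.333. Same-group libraries were not duplicates (chi-square over its degrees of freedom 85.2 in Ctrl and 130 in Olfm4CKO). Exact count ratios cover counting error only. Coordinates are 1-based from RefSeq GRCm38.p6. The pipeline was tested on simulated counts. Alternatives covered filter, scaling, DESeq2 1.42.0, limma-voom (limma 3.58.1), each library left out, a replicate block and gene length.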

Additional observations from a re-analysis of the deposited data

How the results depend on the processing

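The number of genes passing between Olfm4CKO and Ctrl was 0 with no filter, with a filter at a mean of 1 CPM, with RLE or upper quartile scaling and with limma-voom. It was 1 with the DESeq2 Wald test, 4 with the replicate number as a block, and 6 to 27 with 1 library left out, where a group of 1 library borrows its spread from the other group. By library left out it was 25 (Ctrl replicate 1), 27 (Ctrl replicate 2), 27 (Olfm4CKO replicate 1) and 6 (Olfm4CKO replicate 2). No tested family member passed under any of these settings. Deviations of same-numbered libraries correlated at -0.03 across all genes, and the block changed no member's call. Such a correlation over all genes cannot show a pairing that touches only part of them, and this was not tested. Outside the fits with a library left out, 47 of 49 fold changes of members kept their sign. The exception was Olfml2a, at 0.0039 with RLE scaling and 0.0032 with DESeq2, against -0.01 in the fit reported. With 1 library left out, 19 of 28 kept their sign. The ranges were -0.58 to 0.63 for Olfm1, -2.54 to 0.88 for Olfml2a, -0.29 to 0.58 for Olfml2b, -0.32 to 0.75 for Olfml3 and -2.06 to 1.601 for Gldn, while Olfm2 (0.75 to 0.98) and Olfml1 (-1.17 to -0.13) did not turn. The log2 fold change of Gldn was also -0.36 with limma-voom and -0.54 with the block, and that of Olfml2a -0.76 and -0.58. The cause was not tested. Levels per kilobase moved by less than the spread between libraries when the longest transcript replaced the union of exons, and Olfm2 then stood above Olfml3 and Olfml2a in order. The RefSeq span as length of Olfml3, chosen after seeing the data, moved it from 0.474 to 1.12 CPM per kilobase. No member held over 180 counts in a library, and Olfm3 and Olfm4 held none. By the exact counting intervals, the Ctrl libraries differed beyond counting error for every detected member except Olfm2, though only narrowly for Olfml2a. The Olfm4CKO libraries did so for Olfml2a, Olfml2b and, narrowly, Olfm1. The ratio between libraries was largest for Gldn in Ctrl and for Olfml2a in Olfm4CKO.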

Other observations

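The replicate 3 cells printed beside the family symbols belong to no comparison. Beside Olfm4 they hold 1407 in the Ctrl replicate 3 column and 1744 in the Olfm4CKO replicate 3 column, and beside Olfml3 1723 and 1981, against at most 64 counts for Olfml3 in the aligned libraries. Beside Olfm3 they hold 0 in both columns, and for Olfm2, Olfml1 and Gldn they are blank. Because these columns do not follow the gene names, the values are not counts of these genes.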
